A study of Mus musculus with 125 samples.

Results

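Arterial endothelial cells are the lining of the vessels that carry blood into the brain. Here they were taken as the barcodes of 5 single-cell RNA libraries, each of CD31-selected brain cells at 1 age, that looked endothelial and held a UMI (1 counted RNA molecule) of at least 2 of the 5 arterial markers Bmx, Gja4, Gja5, Sema3g and Hey1. A barcode counted as endothelial with at least 200 genes, at most 10% mitochondrial UMIs, at least 3 of Cdh5, Pecam1, Egfl7, Esam, Tie1 and Kdr, and 0 UMIs of Tyrobp, Epcam and Pdgfrb, which mark immune, epithelial and mural cells. Of 42340 barcodes 21195 were endothelial, and 5122 of these were arterial by this rule. They were compared with the 10475 endothelial cells of the same libraries that held none of the 5 markers, called no-marker cells below. The remaining 5598 endothelial cells held 1 marker and stood between the classes.

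The study profiled vessel cells of several mouse organs at several ages by open chromatin, bulk RNA and, in brain only, single-cell RNA. The single-cell libraries came from whole brain at embryonic day 9.5 (E9.5), E12.5 and E16.5, digested with collagenase, and from cortex at postnatal day 8 (P8) and in adults of 2 months, dissociated with a neural tissue kit. No genotype, strain or treatment is stated for these 5 libraries, and the number of animals in each is not given. Open chromatin came from 8 libraries of brain endothelial nuclei (3 labelled E12, 3 labelled P6 and 2 adult) and 5 of whole-brain input nuclei (1, 3 and 1), all from mice given tamoxifen and checked for GFP in their vessels. The protocol puts the postnatal collection 1 day later than the P6 label, which is used below. With 1 library per age, age and library cannot be told apart in any comparison between ages, and between embryonic and postnatal ages brain region and dissociation method change as well. No level or share was tested between ages, and the only test across ages is that of the arterial difference in 3 embryonic against 2 postnatal libraries.

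Arteries and veins differ before flow begins and keep separate gene programmes in the adult. Vascular endothelial growth factor and Notch signalling drive arterial fate, with the ligand Dll4, the receptors Notch1 and Notch4 and the transcriptional targets Hey1 and Hey2, while the factor Nr2f2 holds the venous fate. Of the markers used here, Gja4 and Gja5 are connexins that form gap junctions between arterial cells, Bmx is a cytoplasmic tyrosine kinase, Sema3g is a secreted guidance cue and Hey1 is a Notch target.

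The promoters of Bmx and Gja4 are shown because peaks of open chromatin near their starts were found in different numbers of libraries. Each line gives the 250 bases before the gene's start, 5′ to 3′ along the gene, from RefSeq on build GRCm38.p6. Capitals mark TGGGAA, the core of the site bound by RBPJ, the DNA-binding partner of Notch, searched on both strands as TGGGAA and TTCCCA. Bmx lies at chrX:164258194-164258443 and Gja4 at chr4:127314040-127314289, both on the minus strand.
Bmx: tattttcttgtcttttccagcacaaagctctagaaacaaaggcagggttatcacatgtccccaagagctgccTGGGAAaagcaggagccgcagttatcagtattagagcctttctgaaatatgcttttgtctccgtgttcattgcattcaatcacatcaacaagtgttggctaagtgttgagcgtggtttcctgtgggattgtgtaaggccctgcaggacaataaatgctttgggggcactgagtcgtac
Gja4: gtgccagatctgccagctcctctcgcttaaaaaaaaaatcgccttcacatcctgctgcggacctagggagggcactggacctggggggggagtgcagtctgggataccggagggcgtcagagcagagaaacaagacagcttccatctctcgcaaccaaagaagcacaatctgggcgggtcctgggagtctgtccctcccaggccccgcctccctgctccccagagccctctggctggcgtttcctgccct
The Bmx promoter holds 1 match, 178 bases before the start, and the Gja4 window holds none. A match lay in 20.8% of the 17492 promoters of this length, in 1 of the 4 marker promoters in the RefSeq table and in 3 of the 23 promoters found there for the other arterial genes described below (13.0%).

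The libraries differed in depth and condition. Arterial cells had a median of 7423.5, 12209, 10877.5, 9446 and 6470 UMIs in order of age, from E9.5 to the adult, against 6989, 8588, 7225, 7590 and 4295 in no-marker cells. The arterial cells were the deeper class in all 5 libraries, by 1.06 to 1.51 times, and a rule that asks for detected markers favours deep cells. Barcodes shared between any 2 libraries numbered 0 to 50. The E16.5 library came with no gene list of its own, and its rows were read in the order of the 4 other libraries, whose lists were identical. Over genes, its log2 levels correlated with theirs at 0.924 to 0.977 in that order and at 0.199 to 0.209 when moved by 1 row. Its deposited files are named for another embryonic day than its label, and the labelled age is used.

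The arterial share of endothelial cells was 19.0% at E9.5 (984 of 5183 cells, 95% exact binomial interval 17.9 to 20.1%) and 26.9% at E12.5 (1425 of 5302, 25.7 to 28.1%). It was 33.4% at E16.5 (1182 of 3542, 31.8 to 35.0%), 20.2% at P8 (871 of 4318, 19.0 to 21.4%) and 23.2% in the adult (660 of 2850, 21.6 to 24.8%). E16.5 was the highest and E9.5 the lowest of the 5, and the intervals of E9.5 and P8 overlapped. Intervals here cover counting error only. The share is that of the cells the rule took, most of which held exactly 2 markers up to P8, as given below. Among barcodes with none of the 6 endothelial genes, the same rule took, in order of age, 9 of 1118 (0.805%), 3 of 554 (0.542%), 0 of 51 (exact upper bound 6.98%), 2 of 130 (1.54%) and 5 of 176 (2.84%). Those barcodes had median depths of 1769, 6496.5, 5186, 1247 and 2463.5 UMIs.

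This share changed with thinning and with the limit on mitochondrial UMIs. After every cell was thinned to 2000 UMIs, which left out 258 endothelial cells at E9.5, 95 at P8 and 170 in the adult and none at E12.5 and E16.5, the arterial share was 7.15, 10.0, 13.4, 8.26 and 13.3% in order of age. The adult cortex then stood beside E16.5 instead of well below it. With at most 5% mitochondrial UMIs the share was 15.5, 27.0, 34.7, 32.9 and 33.8%, so that P8 stood at 32.9% instead of 20.2%, and the intervals of the 3 oldest libraries overlapped. This limit kept 1857, 4437, 3182, 1198 and 1387 endothelial cells in order of age. At P8 it kept 394 of 871 arterial cells but only 455 of 2211 no-marker cells. E9.5 had the lowest share under all of these settings except the requirement of 4 endothelial genes, where it was 22.3% against 20.5% at P8. E12.5 was below E16.5 under each of these settings, while the places of P8 and the adult changed with the setting.

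**Figure D1:**
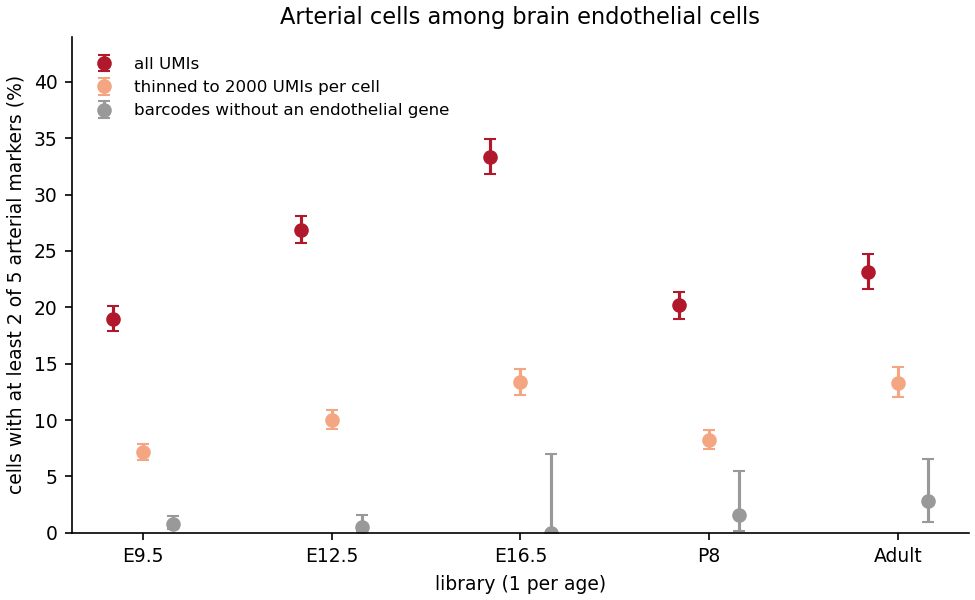
Percent of cells with a UMI of at least 2 of the 5 arterial markers in each library, among endothelial cells with all UMIs (dark red), among endothelial cells thinned to 2000 UMIs (light red), and among barcodes with no endothelial gene (grey). Points are single libraries and bars are 95% exact binomial intervals. The unthinned share is highest at E16.5, at 33.4%, while the thinned share is 13.4% at E16.5 and 13.3% in the adult.

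The 5 markers did not carry the arterial class equally at all ages. Gja4 was detected in 37.1, 44.7, 43.1, 33.7 and 13.8% of all endothelial cells in order of age. Hey1 was detected in 14.2, 27.3, 50.0, 30.7 and 22.9%, and Sema3g in 9.57, 15.3, 13.1, 10.5 and 26.2%. Bmx was in 2.43, 3.49, 7.00, 5.58 and 21.2% and Gja5 in 9.78, 8.53, 7.28, 2.34 and 2.88%. The adult library therefore had the lowest share of the 5 for Gja4 and the highest for Bmx and Sema3g. Gja4 was also found in 13.9% of barcodes without an endothelial gene at E12.5, 13.1% at P8 and 12.5% in the adult, so that its adult share among all endothelial cells was close to that background. The same background for Bmx was 0 to 4.55% and for Sema3g 0 to 2.27%.

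Within the arterial cells the most frequent pair of markers was not the same at all ages. Gja4 and Hey1 were found together in 54.9% of arterial cells at E9.5, in 80.5, 91.4 and 86.9% in the next 3 libraries, but in 38.6% in the adult. In the adult the most frequent pair was Bmx with Sema3g, in 69.4% of arterial cells, against 2.34% at E9.5 and 19.6% at P8. Gja4 with Gja5 marked 45.6% of arterial cells at E9.5 and 10.9% in the adult. Cells with exactly 2 markers, just inside the rule, made up 62.8, 58.1, 60.9, 58.2 and 37.1% of the arterial class, and cells with exactly 1, just outside it, numbered 1352, 1459, 1093, 1236 and 458. These values were used by the rule and are given as a description.

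**Figure D2:**
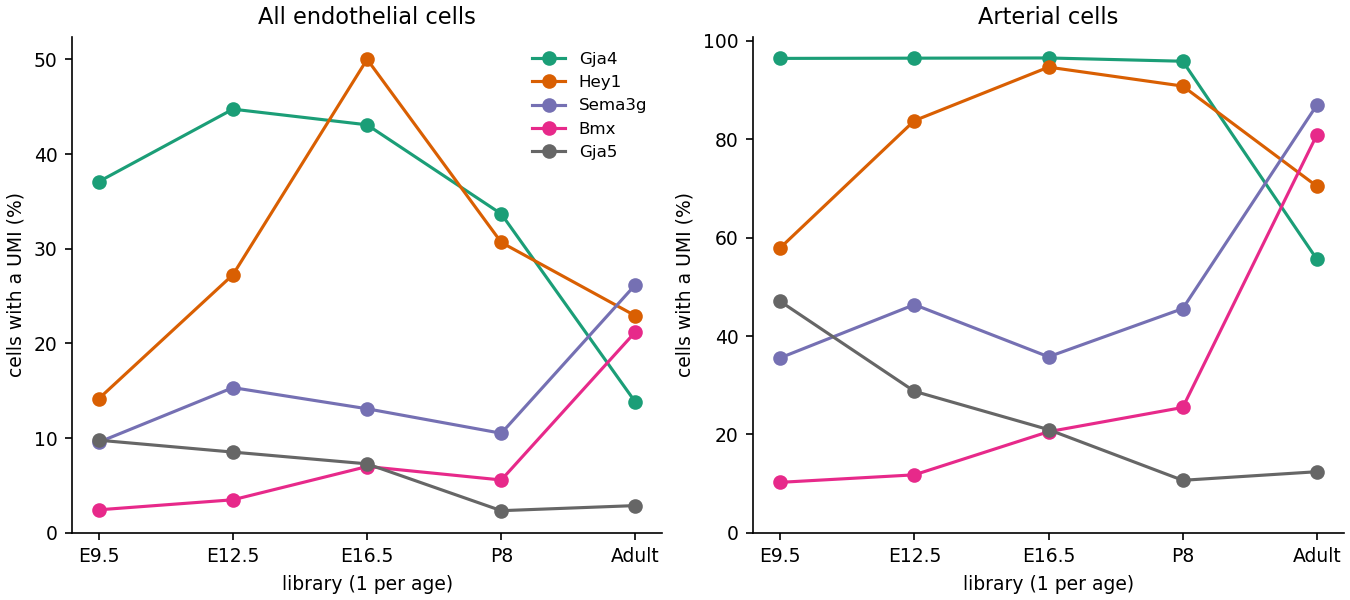
Percent of cells with a UMI of each of the 5 markers, in all endothelial cells (left) and in the arterial cells that the markers themselves chose (right), with 1 library per age on the horizontal axis. In arterial cells Gja4 stays between 95.9 and 96.5% up to P8 and is at 55.6% in the adult, where Bmx reaches 80.9% and Sema3g 87.0%.

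Levels are given as CPM, the UMIs of a gene per 1000000 UMIs of the summed cells of a class, and were first taken over all endothelial cells. Bmx was at 3.66, 5.91, 16.3, 15.4 and 161 CPM in order of age, with an exact Poisson 95% interval of 155 to 167 in the adult. Gja4 was at 196, 431, 283, 183 and 86.4 CPM, and Gja5 at 20.4, 35.6, 30.5, 6.41 and 6.96. Sema3g was at 14.2, 18.9, 20.8, 19.4 and 144, and Hey1 at 24.7, 61.5, 132, 60.8 and 78.5. For Bmx the neighbours E16.5 and P8 had overlapping intervals (15.1 to 17.6 and 14.4 to 16.5), as had Gja5 at P8 and in the adult (5.74 to 7.14 and 5.81 to 8.27). Levels of different markers are not compared with each other here.

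Each marker was then read in cells chosen without it, by at least 2 of the other 4 markers, against endothelial cells with none of the other 4. The left-out marker was higher in CPM in the chosen cells in 25 of 25 combinations of marker and library. The smallest ratio was 5.34, for Hey1 at E16.5 (326 against 61.1 CPM), and the largest of the 24 with a comparison level above 0 was 94.7, for Gja5 at P8 (28.9 against 0.305). In the adult the left-out Gja5 was at 21.5 CPM in 660 chosen cells and at 0 in 1732 comparison cells, with an exact 95% upper bound of 0.373 CPM. Gja4 in the adult, where its overall detection was near background, was at 261 CPM in chosen cells and 2.80 in comparison cells. With comparison cells matched to the chosen cells on UMI count, the marker was again higher in 25 of 25. Matching did not equalise depth at E16.5, where the comparison cells were too few, and for the arterial class as a whole the medians there were 10877.5 and 7578 UMIs.

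Over the 5 libraries, 11893 genes that the rule did not use were tested for a difference between arterial and no-marker cells, on counts summed per library and class, with the library as a block. A gene passed at an adjusted p under 0.05 and a log2 difference of at least 1. This took 424 genes (3.57%), of which 292 were higher in arterial cells (2.46%) and 132 lower (1.11%), and the median over all genes was -0.01. Of those higher, 268 were higher in all 5 libraries, and of those lower, 92 were lower in all 5. At an unadjusted p under 0.05 with the same size, 649 genes passed. The count was 170 without E12.5, 83 without E16.5 and 111 without P8, against 428 without E9.5 and 569 without the adult.

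A list of 30 arterial genes outside the rule moved with the markers. Of the 30, 25 rose in arterial cells, none fell and 5 did not pass, with a median log2 difference of 2.61 against -0.01 over all genes. Over all genes tested 2.46% were higher and 1.11% lower. Of the 5 that did not pass, Notch1, Tgfb2 and Acvrl1 missed only the size threshold, at log2 differences of 0.96, 0.94 and 0.70. Nrp1 missed both thresholds, at a log2 difference of 0.77, and Clu that of the adjusted p, at a log2 difference of 2.59. Each of the 5 was higher in all 5 libraries. Leaving out a library gave 21 of 30 without E9.5, 19 without E12.5, 13 without E16.5, 16 without P8 and 26 without the adult, with medians of 2.29 to 2.70. The list and the markers were chosen with earlier results of these data known, so the count describes these cells and is no independent support.

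The largest difference of the arterial list was that of Gkn3. Gkn3, a gastrokine named as a marker of brain arteries, was at 0, 11.9, 35.9, 440.0 and 2552 CPM in arterial cells in order of age. In no-marker cells it was at 0, 0.116, 0.424, 2.83 and 10.0. Both classes were at 0 at E9.5, and in the other 4 libraries arterial cells were far above the rest, by a fitted log2 difference of 7.41 ± 0.28 (SE, adjusted p = 0.00105, edgeR quasi-likelihood test). Dkk2, a secreted Wnt antagonist, was at 1.91, 51.9, 50.4, 24.2 and 14.3 in arterial cells and at 0.450, 0.970, 0.594, 0.191 and 0 in no-marker cells. Its highest arterial levels were embryonic, unlike those of Gkn3, and its log2 difference was 5.69 ± 0.58 (SE, adjusted p = 0.00505).

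Elastic fibre and matrix genes were read as a second list, of which 5 of the genes that passed (Eln, Fbln2, Fbln5, Mgp and Ltbp4) are also on the arterial list. Of 20 such genes 15 were tested and 9 rose (Eln, Fbln2, Fbln5, Mgp, Ltbp1, Ltbp4, Fbn1, Mfap2 and Lox). None fell, the median log2 difference was 2.08, and over all genes 2.46% were higher and 1.11% lower. Eln, which encodes elastin, was at 0.239, 41.1, 555, 246 and 386 CPM in arterial cells and at 0.0450, 1.01, 10.6, 14.2 and 31.4 in no-marker cells. Fbln5, a fibulin that helps elastic fibres assemble, was at 0.119, 65.9, 693, 485 and 176 against 0.0450, 2.21, 17.2, 7.92 and 1.21. At E9.5 the arterial sum held 2 UMIs of Eln, 1 of Fbln5 and 2 of Mgp, too few for a fold. From E12.5 on Eln and Fbln5 were higher in arterial cells in each library. The fitted log2 differences were 4.54 ± 0.37 for Eln (SE, adjusted p = 0.00292) and 5.60 ± 0.36 for Fbln5 (adjusted p = 0.00237).

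Mgp and Fbln2 kept different courses. Mgp, an inhibitor of calcification and of BMP signalling, was at 0.239, 10.3, 93.4, 174 and 2662 CPM in arterial cells and at 0.180, 0.543, 5.94, 12.6 and 90.1 in no-marker cells. Its adult arterial level stood apart from all younger ones. Fbln2 was at 2.15, 57.6, 174, 294 and 226 in arterial cells and at 1.58, 2.17, 6.19, 7.88 and 2.63 in the rest, with its highest level at P8. The log2 differences were 4.10 ± 0.33 (SE, adjusted p = 0.00292) and 4.66 ± 0.70 (adjusted p = 0.0164). Fbn1, encoding fibrillin, ran the other way in level, at 81.3, 16.1, 30.3, 16.2 and 11.7 in arterial cells, and passed at 2.98 ± 0.68 (adjusted p = 0.0391). Ltbp4, which ties latent TGF-beta to the matrix, was at 12.4, 47.8, 125.1, 397 and 939 in arterial cells against 2.16, 3.10, 6.19, 109 and 403, so that its ratio was highest at E16.5 and its difference in CPM highest in the adult. Without E12.5, E16.5 or P8 the matrix list had 5, 4 and 4 calls.

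**Figure D3:**
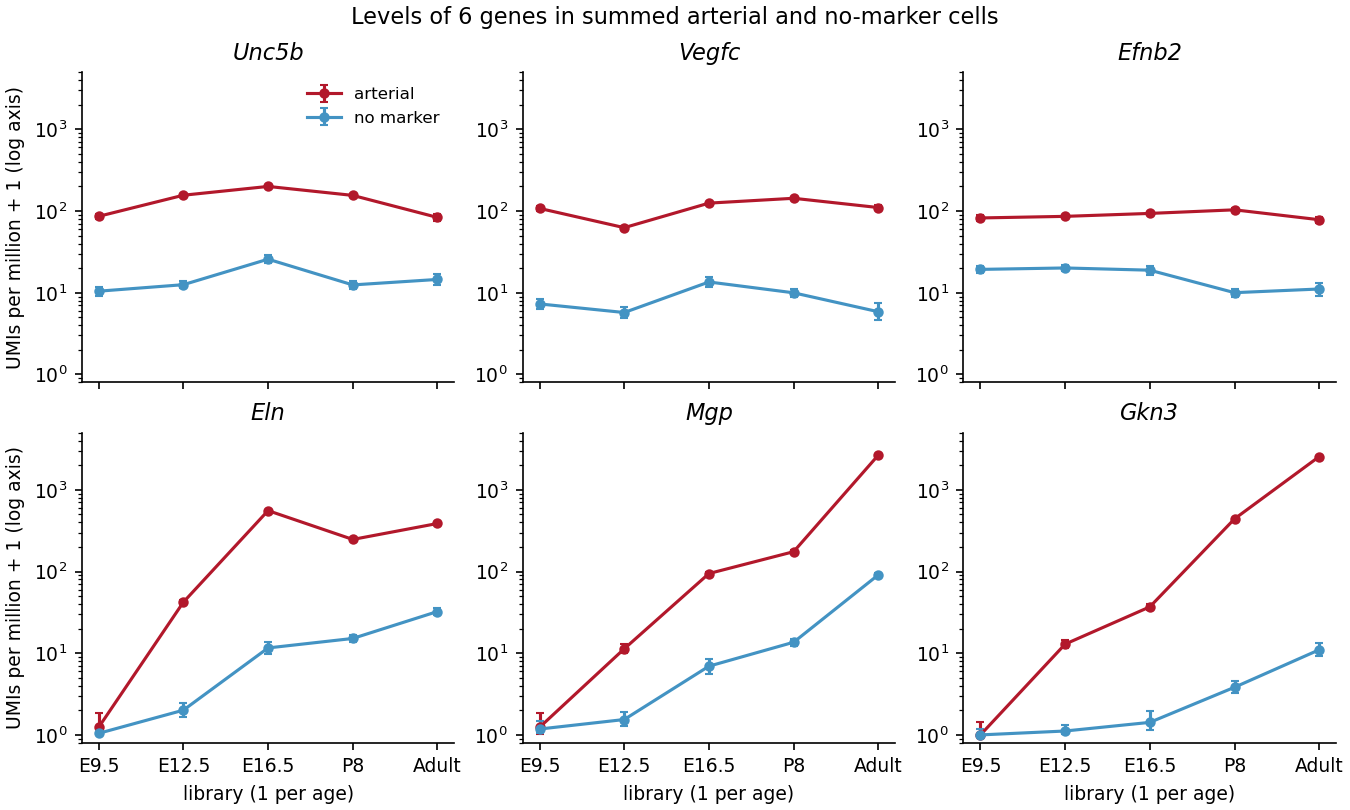
CPM plus 1, on a log axis, of 6 genes in the summed arterial cells (red) and no-marker cells (blue) of each library, with exact Poisson 95% intervals that cover counting error only. Unc5b, Vegfc and Efnb2 are already apart at E9.5, while Eln, Mgp and Gkn3 start near 0 in both classes and separate from E12.5 on.

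The Notch pathway gave calls among ligands, receptors and targets. Of 22 members 21 were tested, 6 rose (Notch4, Dll4, Jag1, Jag2, Hes5 and Hey2) and none fell, with a median of 0.20. Notch4, Dll4, Jag1, Jag2 and Hey2 are also on the arterial list, and over all genes 2.46% were higher and 1.11% lower. Dll4, the ligand most tied to arterial fate, was at 38.4, 120.0, 164, 121 and 61.1 CPM in arterial cells against 5.54, 32.4, 70.9, 59.6 and 22.6, a log2 difference of 1.57 ± 0.24 (SE, adjusted p = 0.0171). Its ratio on the log2 scale (with 1 CPM added) was 2.59 at E9.5 and 1.00 at P8. Jag1 was at 13.3, 71.4, 150.4, 79.8 and 145 against 4.55, 19.7, 66.9, 29.7 and 43.8, and passed at 1.49 ± 0.11 (adjusted p = 0.00265). Hey2, the paralogue of the marker Hey1, was low throughout, at 7.65, 8.89, 4.50, 3.57 and 4.87 in arterial cells, but at most 1.04 in no-marker cells (log2 difference 4.10 ± 0.51, adjusted p = 0.00972).

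The receptors Notch1 and Notch4 and the remaining members gave these values. Notch1 was at 107, 120.1, 144, 251 and 288 CPM in arterial cells and at 50.7, 53.1, 69.0, 124.8 and 169 in the rest. Its log2 difference of 0.96 ± 0.07 had an adjusted p of 0.00237 and missed only the size threshold. Notch4 passed at 1.15 ± 0.15 (adjusted p = 0.0108). Jag2, at 4.30 to 129 in arterial cells, passed at 1.11 ± 0.09 (adjusted p = 0.00292), and Hes5 at 2.24 ± 0.49 (adjusted p = 0.0359). In the adult Hes5 was at 0.168 against 0.506, which are too few UMIs for a direction. The core factor Rbpj did not pass, with 0.09 ± 0.08. Without E16.5 the pathway had 3 calls, without E12.5 or P8 it had 4, and with cells thinned to 2000 UMIs it had 2 of 16 tested.

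Most guidance genes did not pass, while Unc5b and Efnb2 were apart at every age. Of 25 guidance genes 22 were tested, 4 rose (Unc5b, Ntn4, Efna1 and Efnb2) and 1 fell (Nrp2), with a median of 0.46. Over all genes 2.46% were higher and 1.11% lower, so that the 1 fall is near the background. Unc5b and Efnb2 are also on the arterial list. Unc5b, a netrin receptor, was at 85.2, 155, 199, 155 and 82.6 CPM in arterial cells and at 9.46, 11.6, 24.8, 11.5 and 13.6 in no-marker cells. Efnb2, the ephrin that marks arteries, was at 81.4, 85.1, 92.6, 103 and 77.4 against 18.3, 19.1, 17.9, 9.03 and 10.1. The level of Efnb2 varied little with age in the arterial class as a whole. In cells with 4 or 5 markers it was at 109, 193, 206, 159 and 86.0 CPM in order of age. The log2 differences of Unc5b and Efnb2 were 3.21 ± 0.18 (SE, edgeR adjusted p = 0.00145) and 2.55 ± 0.22 (edgeR adjusted p = 0.00338). Ntn4, a netrin of vessel walls, passed at 2.76 ± 0.58 (adjusted p = 0.0333), and Sema3f did not, at 2.07 ± 0.60 (adjusted p = 0.0677). Leaving out any 1 of E9.5, E12.5, E16.5 and P8 left 2 higher genes in the list and ended the call of Nrp2.

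Secreted signals and their receptors followed. Vegfc, a growth factor for lymphatic vessels, was at 107, 61.6, 124, 142 and 109 CPM in arterial cells and at 6.30, 4.73, 12.6, 8.99 and 4.86 in the rest, a log2 difference of 3.83 ± 0.18 (SE, adjusted p = 0.000866). The chemokine Cxcl12 was at 12.9, 165, 788, 1684 and 2551 against 1.89, 5.04, 101, 148 and 1785, and its receptor Cxcr4 at 6.93, 80.6, 75.6, 50.9 and 3.69 against 0.630, 3.72, 15.7, 12.2 and 0.810. Ligand and receptor were thus both higher in arterial cells at each age, and for Cxcl12 the classes were closest as a ratio in the adult. They passed at 2.92 ± 0.61 (adjusted p = 0.0330) and 2.82 ± 0.39 (adjusted p = 0.0132). Cxcr4 was the single gene of 15 tip cell genes to rise, and none of the 15 fell, with a median of 0.21, and without E16.5 none passed. Over all genes 2.46% were higher and 1.11% lower, so that these counts are near the background, and Cxcr4 is also on the arterial list. Edn1, the vasoconstrictor endothelin-1, was at 86.8, 71.4, 137, 113 and 421 against 17.4, 21.4, 40.8, 43.1 and 157 (log2 difference 1.66 ± 0.14, adjusted p = 0.00292).

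Of 16 flow and vasomotor genes 15 were tested and 2 rose, Edn1 and the potassium channel gene Kcnj2 (1.04 ± 0.19, adjusted p = 0.0251), with a median of 0.39. Of all genes tested 2.46% were higher and 1.11% lower, and Edn1 is also on the arterial list. Without E12.5, E16.5, P8 or the adult, and after thinning, Edn1 alone rose, and 1 gene fell without the adult and after thinning. Klf2, a transcription factor raised by laminar flow, was at 174.6, 974, 1971, 1501 and 2412 CPM in arterial cells and at 102, 418, 1434, 1127 and 1758 in the rest. It was higher in all 5 libraries at a log2 difference of 0.61 ± 0.12 (adjusted p = 0.0298), below the size threshold, as was Klf4 at 0.70 ± 0.12. Nos3, the endothelial nitric oxide synthase, did not pass at 0.35 ± 0.12.

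BMP and TGF-beta genes gave 4 calls of 15 tested among 18, Id1, Smad6, Smad7 and Tmem100, all higher, with a median of 0.56. Over all genes tested 2.46% were higher and 1.11% lower. Tmem100, a membrane protein induced through the receptor Acvrl1, was at 116, 57.6, 84.0, 75.9 and 31.2 CPM in arterial cells and at 4.64, 1.09, 2.04, 0.383 and 0.506 in no-marker cells. Smad6, an inhibitor of the same pathway, was at 17.9, 35.5, 78.2, 25.7 and 111 against 3.20, 6.01, 8.99, 3.44 and 16.5. Both genes were higher in arterial cells from E9.5 on, with log2 differences of 5.56 ± 0.38 (SE, adjusted p = 0.00237) and 2.71 ± 0.12 (adjusted p = 0.000866). Smad7 and Id1 passed at 1.27 ± 0.16 and 1.04 ± 0.19. Without E16.5 or P8 2 genes of this list passed, and without E9.5 or E12.5 3 did.

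Transcription factors and other arterial genes gave these levels. Sox17, which acts upstream of Notch in arterial fate, was at 140.3, 341, 529, 532 and 884 CPM in arterial cells and at 47.6, 140.2, 215, 165 and 425 in the rest (log2 difference 1.32 ± 0.09, adjusted p = 0.00237). Epas1, a hypoxia-inducible factor, was at 68.6, 202, 378, 757 and 1902 against 16.6, 72.6, 182, 330.0 and 1245 (1.21 ± 0.18, adjusted p = 0.0158). For either gene the adult no-marker level was above the arterial level at E9.5, so that the age of the library and the class both went with the level. Alpl, an alkaline phosphatase, was at 1.08, 1.69, 5.29, 13.6 and 287 against 0.450, 0.233, 0, 0.0765 and 27.3 (3.81 ± 0.61, adjusted p = 0.0188). Igfbp3 was at 114, 539.7, 609, 139 and 167 against 23.3, 196, 163, 12.8 and 4.05, and Tm4sf1 at 79.0, 374, 630.0, 1373 and 2495 against 12.2, 274, 122, 174 and 303. They passed at 2.67 ± 0.55 (adjusted p = 0.0315) and 2.29 ± 0.41 (adjusted p = 0.0236). Slc45a4 and Arl15 passed at 3.91 ± 0.30 (adjusted p = 0.00267) and 1.93 ± 0.29 (adjusted p = 0.0159).

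Genes from outside the arterial list stood among the 12 largest differences. Stmn2, a tubulin-binding protein best known from neurons, was at 92.4, 305, 272, 336 and 817 CPM in arterial cells and at 12.3, 22.1, 9.67, 3.98 and 13.7 in no-marker cells. It was the 1 gene to rise of 8 tested among 19 neural markers, while Tubb3 and Map2 had differences of -0.43 and -0.25, and Stmn2 itself was at 4.67 ± 0.59 (adjusted p = 0.00972). Of all genes tested 2.46% were higher. Cytl1, a secreted cytokine-like protein, was at 0.956, 6.21, 14.7, 5.03 and 126 against 0.360, 0.815, 0.170, 0.0765 and 0.304, and Syt15, a synaptotagmin, at 1.31, 20.9, 52.0, 55.3 and 55.4 against 0, 0.970, 4.33, 0.803 and 0.506. Most of the Cytl1 signal was therefore adult, while Syt15 changed little from E16.5 on. Gper1, a membrane oestrogen receptor, and Dsp, which encodes the junction protein desmoplakin, reached 129 and 85.9 in adult arterial cells against 1.92 and 1.52. The log2 differences of these 4 genes ran from 4.07 to 4.97. All 12 named genes passed without E9.5 and without the adult, and 10, 7 and 9 of them without E12.5, E16.5 and P8. The 12 stayed higher in each of these fits, which follows from their choice as genes higher in all 5 libraries.

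**Figure D4:**
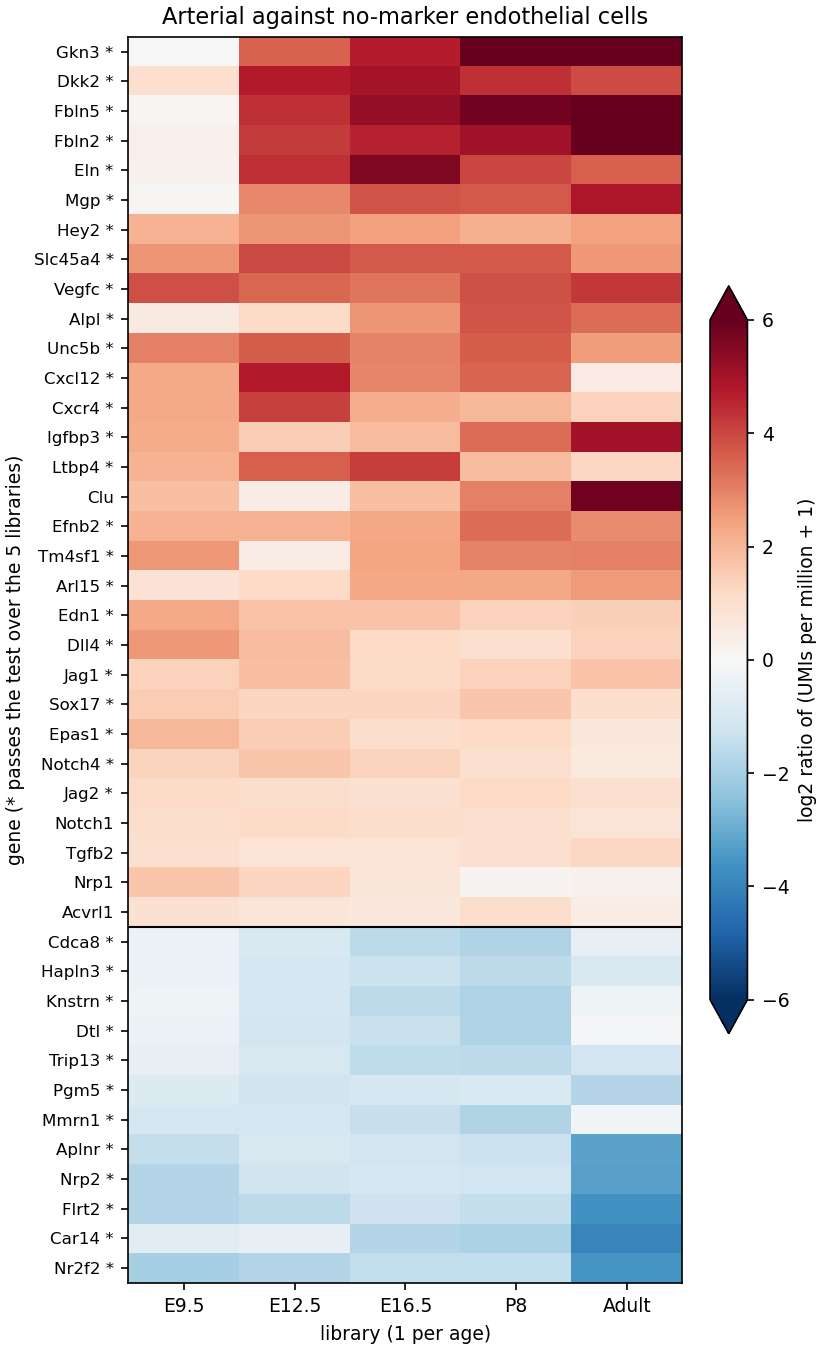
Log2 ratio of CPM plus 1 in arterial over no-marker cells in each library, for the 30 arterial genes outside the rule (above the line) and for the 12 named genes lower in arterial cells (below it), with red for higher and blue for lower and the end colours covering values beyond 6. Asterisks mark genes that passed over the 5 libraries. Fbln5, Fbln2, Eln, Mgp and Gkn3 are pale at E9.5 and dark from E12.5 on, and the venous genes Nr2f2, Nrp2 and Aplnr are darkest in the adult.

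Of 18 venous genes 17 were tested, 4 fell (Nr2f2, Nrp2, Ackr1 and Aplnr), 1 rose (Vcam1) and 12 did not pass, with a median of -0.58. Over all genes 1.11% were lower and 2.46% higher, so that the 1 rise is near the background. At E9.5 the summed list was level, at 1013 CPM in arterial cells against 1021 in the rest. Nr2f2, the venous fate factor, was at 21.0, 28.2, 33.1, 29.3 and 10.1 CPM in arterial cells and at 87.6, 97.3, 93.6, 84.5 and 129 in no-marker cells. Nrp2, a semaphorin and growth factor receptor of veins, was at 47.4, 63.6, 53.4, 45.6 and 9.23 against 161, 148, 110.4, 102 and 98.4. In both genes the ratio between the classes was farthest from 1 in the adult. Nr2f2 fell by 2.10 ± 0.29 on the log2 scale (SE, adjusted p = 0.0132). Nrp2 fell by 1.69 ± 0.31 (adjusted p = 0.0259).

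Aplnr, the apelin receptor, was at 51.3, 315, 224, 127 and 0.839 CPM in arterial cells and at 141, 615, 495, 314 and 16.2 in the rest, and fell by 1.53 ± 0.30 (SE, adjusted p = 0.0290). Ackr1, a chemokine-binding receptor of venules, was lower in all 5 libraries, from 5.86 against 10.0 at E9.5 to 0.336 against 2.23 in the adult, and fell by 1.86 ± 0.36 (adjusted p = 0.0279). Vcam1, an adhesion molecule listed here as a venous gene, was at 0.717, 7.90, 15.7, 130.5 and 397 in arterial cells against 0.585, 0.815, 3.22, 6.92 and 61.9. It rose by 2.94 ± 0.40 (adjusted p = 0.0124), against the direction of the list. The list had 3 falling genes without E9.5, 1 without E12.5, and none without E16.5 or P8, where the median stayed at -0.48 and -0.47.

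The other named genes lower in arterial cells had these values. Flrt2, an adhesion protein that binds Unc5 receptors, was at 18.2, 20.2, 25.7, 44.2 and 10.6 CPM in arterial cells and at 64.5, 62.2, 61.3, 123 and 142 in the rest, the opposite of Unc5b. It fell by 1.97 ± 0.33 (SE, adjusted p = 0.0212). Car14, a carbonic anhydrase, was at 2.51, 2.48, 8.01, 8.05 and 5.03 against 4.50, 3.96, 29.1, 32.3 and 92.3, so that the ratio was farthest from 1 in the adult, and it fell by 2.03 ± 0.46 (adjusted p = 0.0389). Mmrn1, Pgm5 and Hapln3 had log2 differences of -1.42, -1.35 and -1.24, and all 3 passed. Trip13, Dtl, Knstrn and Cdca8, which act in chromosome segregation or DNA replication, passed with log2 differences of -1.31, -1.28, -1.24 and -1.24. They were at 43.6, 32.7, 53.7 and 215 CPM in arterial cells at E9.5 against 61.2, 42.6, 65.2 and 276. All 12 named genes were lower under every alternative. They were chosen as genes lower in all 5 libraries, so this shared direction gives no further support. Only 9 passed without E9.5, 3 without E12.5, 2 without E16.5 and 2 without P8. None passed with no replicate block, and 8 passed with at most 5% mitochondrial UMIs.

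The cell cycle list had 8 genes that fell of 26 tested (Mki67, Top2a, Ccnb1, Ccna2, Birc5, Cenpf, Tpx2 and Mcm5). In addition 1 rose (Cdkn1c), and the median was -0.97. Over all genes 1.11% were lower and 2.46% higher, so that the 1 rise is near the background. Summed, with Cdkn1c included, the list was at 5487, 3964, 2906, 1824 and 1661 CPM in arterial cells against 5043, 4769, 2624, 2307 and 798. The sum was thus higher in arterial cells at E9.5, at E16.5 and in the adult, and lower at E12.5 and P8. At E9.5 and E16.5 the difference of Cdkn1c, an inhibitor of the cycle given below, was larger than that of the sum. The other genes of the list together were therefore lower in arterial cells at these ages. Top2a, a topoisomerase of dividing cells, was at 369, 104, 35.1, 35.6 and 0.839 CPM in arterial cells and at 411, 198, 91.4, 137 and 0.709 in no-marker cells. Birc5 was at 354, 172, 32.6, 19.5 and 0.168 against 434, 337, 106, 89.4 and 0. As a ratio the classes were closest at E9.5 among the first 4 libraries and farthest apart at P8, and the adult cells of both classes held next to none. The median log2 ratio of the list was -0.16, -0.80, -1.20, -1.48 and 0.17 in order of age. None of the 8 passed without E12.5, without E16.5, without P8 or with at most 5% mitochondrial UMIs, where the median stayed between -1.04 and -0.75.

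Cdkn1c, an inhibitor of cyclin-dependent kinases, was high in arterial cells at all ages, at 1424, 1132, 1424, 579 and 429 CPM against 359, 308, 388, 66.4 and 117. It rose by 2.08 ± 0.20 (SE, adjusted p = 0.00460) and passed without any 1 of the libraries. Ccnd2, a cyclin of the start of the cycle, was at 121, 142, 208, 169 and 407 against 129, 82.0, 64.5, 33.0 and 13.9, and did not pass at 1.73 ± 0.69 (adjusted p = 0.145). The 2 classes were level at E9.5 for Ccnd2 and far apart in the adult.

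Of 28 capillary and barrier genes, which include transporters of the blood-brain barrier, 0 passed in either direction by edgeR, with a median of 0.14, and 1 rose by DESeq2 and 1 without the adult library. Over all genes 3.57% passed, so that a count of 0 among 28 is near the background. Mfsd2a, a lipid transporter of the barrier, was at 0.239, 246, 638, 1119 and 330.1 CPM in arterial cells and at 0.0450, 32.7, 333, 674 and 482 in no-marker cells. Car4, a carbonic anhydrase of capillaries, was at 7.29, 5.56, 43.6, 357 and 38.6 against 7.75, 2.87, 77.4, 889 and 1025. The direction thus turned with age for Mfsd2a, and the adult difference was the largest for Car4, and neither passed (0.94 ± 0.49, adjusted p = 0.238, and -1.23 ± 0.76, adjusted p = 0.319). The median log2 ratio of the list was 0.21, 1.05, 0.27, 0.05 and -0.83 in order of age, so that E12.5 arterial cells held more and adult arterial cells less of these genes than the rest. Slco1c1 and Slco1a4, both organic anion transporters, had 1.10 ± 0.41 and 1.33 ± 0.75. Cldn5, the tight junction protein, differed by 0.22 ± 0.21.

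Basement membrane genes gave 1 call of 13, Lamb2, a laminin chain, at 11.6, 25.5, 43.4, 111 and 208 CPM against 3.69, 8.18, 22.7, 61.8 and 154 (1.00 ± 0.18, adjusted p = 0.0234). It did not pass when any 1 of E9.5, E12.5, E16.5 and P8 was left out. No gene of this list passed after thinning, with RLE instead of TMM factors, with no replicate block or with tighter UMI matching. None passed with cells of 1 marker added to the comparison, or without cells holding further genes of other cell types. By DESeq2, with plain UMI matching and without the adult, 2 passed, and the remaining settings with all libraries gave 1. With 2.46% of all genes higher, a count of 1 among 13 is near the background. The connexins outside the rule that could be tested were Gja1 and Gjc1. Gja1 was at 56.3, 232, 155, 143 and 81.2 in arterial cells and at 49.1, 105, 91.9, 67.3 and 34.8 in the rest, higher in all 5 libraries by 0.82 ± 0.16, below the size threshold, and Gjc1 differed by -0.29 ± 0.18.

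Genes of other cell types were looked at in the same sums. Of 12 mural markers 9 were tested and 1 rose, Acta2, at 99.3, 3.38, 0.993, 1.37 and 33.2 CPM in arterial cells against 26.7, 1.20, 0.339, 0.995 and 5.47 (1.73 ± 0.28, adjusted p = 0.0193). With 2.46% of all genes higher, a count of 1 among 9 is near the background. The summed mural list was at 426, 43.1, 43.7, 89.8 and 264 against 75.1, 24.2, 33.8, 89.3 and 199, so that the excess lay mainly at E9.5, where Tagln was at 312 against 32.7. Myh11, which defines smooth muscle, was at 0.358, 0.248, 0.265, 0.274 and 14.8 against 0.135, 0.155, 0.0848, 0.0383 and 1.01. The part of such cells in the matrix and contractile values was not tested beyond leaving out all cells with a UMI of 11 more genes, Myh11, Tagln, Col1a1 and Dcn among them. That left 385 genes passing, with 8 matrix genes and 25 arterial genes higher, and Acta2 no longer passing. At E9.5, where the arterial loss was largest, it kept 548 of 984 arterial cells and 2416 of 2847 no-marker cells. The other E9.5 arterial cells thus held a UMI of a gene of another cell type. Acta2 also did not pass without E9.5, E12.5 or E16.5 (adjusted p = 0.0640, 0.0537 and 0.0780), at log2 differences of 1.59, 1.82 and 1.74.

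Lists of further cell types were read in the same way. Fibroblast markers, summed, were at 19.4, 10.5, 8.07, 19.4 and 39.4 CPM in arterial cells against 23.9, 11.7, 11.1, 3.06 and 4.96, with no call by edgeR among 5 tested and Col3a1, Col1a1, Col1a2 and Dcn at 1.03, -0.13, 0.24 and 0.33. Myeloid markers were at 7.04 to 35.6 against 7.80 to 34.8 with no call among 7, and erythroid markers at 3065 to 18641 against 3332 to 13666 with no call among 10. With 3.57% of all genes passing, no call in lists this short is near the background. Of these lists of other cell types the erythroid one had the highest level in both classes. Of 9 endocardial, lymphatic and haemogenic markers 5 were tested, Npr3, a natriuretic peptide receptor, rose (106, 97.3, 65.7, 35.8 and 8.39 against 22.1, 17.4, 6.62, 4.40 and 0.405, 2.75 ± 0.23, adjusted p = 0.00292) and the lymphatic marker Lyve1 fell by 1.35 ± 0.29 (adjusted p = 0.0349). Lyve1 had at most 16 UMIs in either class at E16.5 and later, did not pass without E16.5 or P8 (adjusted p = 0.118 and 0.0871), and was too low to be tested without E9.5 or E12.5, with matched comparison cells or after thinning.

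Immediate early genes, which dissociation can raise, were looked at for the same reason. None of the 14 passed, and the median was 0.46, while 1 passed by DESeq2, 1 with cells matched within 10% and 1 with at least 3 markers. Over all genes 3.57% passed, so that no call among 14 is near the background. Dusp1 was higher in all 5 libraries and missed only the size threshold, at 0.99 ± 0.19 (SE, edgeR adjusted p = 0.0270). Their summed level was 10289 CPM in adult arterial cells against 4271 in adult no-marker cells, and 788 against 566 at E9.5. Fos was at 1669 against 227 in the adult and 58.9 against 97.7 at E12.5. Egr1 was at 516 against 34.5 in the adult. The part of dissociation in other adult differences was not tested.

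The other arterial genes were read against the number of markers a cell held, counted before thinning. The steps therefore also differed in depth, from a median of 7225 UMIs with 0 markers to 12460.5 with 4 or 5 at E16.5. With the counts of each cell then thinned to 2000 UMIs, the summed level of the 30 arterial genes at E16.5 was 1753, 2449, 4007, 8236 and 16890 CPM in cells with 0, 1, 2, 3 and 4 or 5 markers. In the adult it was 6487, 11459, 14193, 16181 and 20653, and at E9.5 480, 948, 1518, 1866 and 2500. The level rose at each step in all 5 libraries. Matrix genes had another shape, at 249, 264, 544, 1899 and 8019 at E16.5, where most of the level was in cells with 4 or 5 markers, and at 362, 392, 408, 475 and 461 at E9.5, where it hardly moved. Cells with 1 marker, left out of both classes, thus stood above the no-marker cells for arterial genes in each library. At E16.5 cells with exactly 2 markers, 60.9% of the class, were nearer in level to no-marker cells than to cells with 4 or 5. The same held at E12.5 and P8, but not at E9.5 or in the adult. For such cells the name arterial is that of the rule only.

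Venous and capillary genes ran otherwise along the same steps. Venous genes at E16.5 were at 2890.3, 2507, 2098, 1563 and 1173 CPM, and at E9.5 at 993, 954, 1047, 1050.5 and 1124. Capillary and barrier genes in the adult were at 35758, 33456, 30143, 27084 and 21720.0, while at E16.5 they were at 20547, 23812, 25915, 26250.0 and 19546. Venous genes were thus lower with more markers at each step at E12.5 and E16.5 and up to 3 markers at P8, but not at E9.5. In the adult they were at 1854, 1398, 996, 1097 and 1547, lowest at 2 markers and higher again above it. Capillary genes were highest in cells with 3 markers at E12.5, E16.5 and P8. With all UMIs this did not hold at E12.5, where they were at 13722 with 3 markers and 13826 with 4 or 5. These are single libraries and the steps were not tested.

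**Figure D5:**
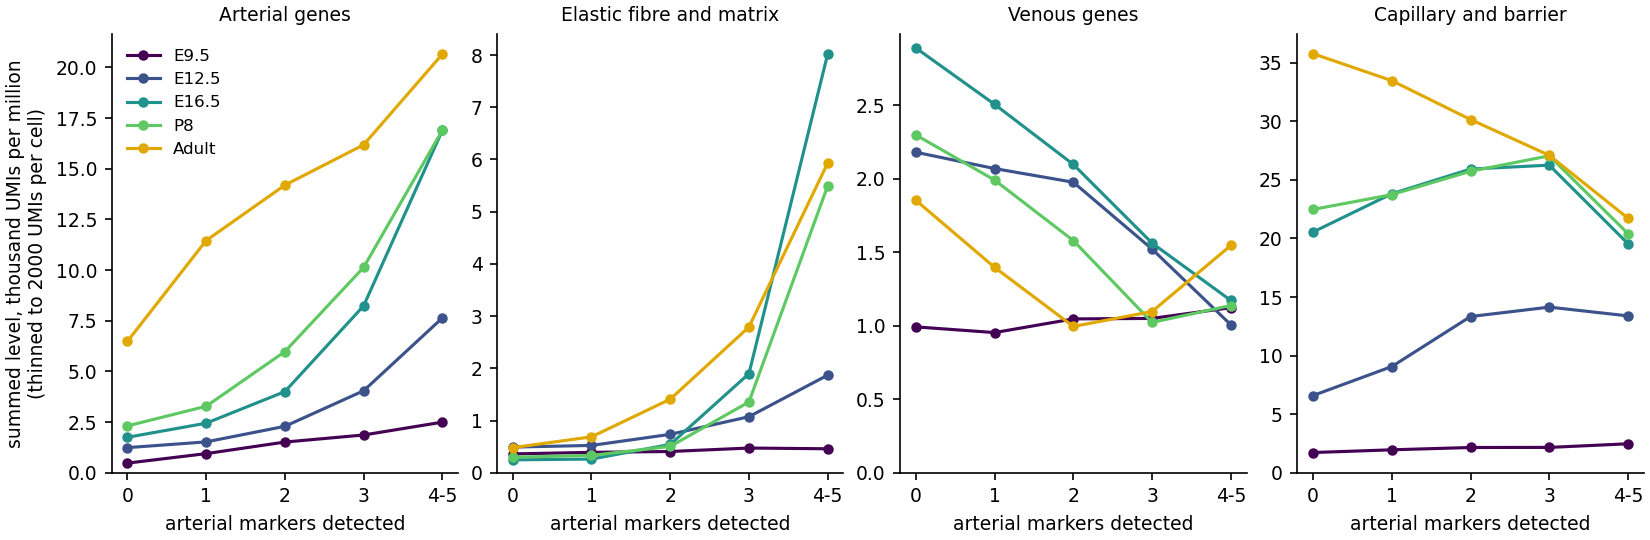
Summed level of 4 gene lists, in CPM after thinning to 2000 UMIs per cell (the axis is in units of 1000 CPM), against the number of the 5 arterial markers detected, with 1 line per library. Arterial genes rise at each step at every age, matrix genes rise steeply only from E12.5 on, and at E16.5 the venous list goes from 2890.3 to 1173 CPM.

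The summed level of the arterial list was read in each library. The 30 genes together were at 1649, 3521, 6717, 8607 and 18339 CPM in arterial cells in order of age, and at 459, 1228, 1681, 1902 and 5772 in no-marker cells. The total was higher in each older library in both classes, with no spread between libraries known, and the log2 ratio stayed between 1.52 at E12.5 and 2.18 at P8. The make-up of the class also changed, with exactly 2 markers in 58.1 to 62.8% of its cells up to P8 and in 37.1% in the adult. In thinned cells with 4 or 5 markers the level was 2500, 7639, 16890, 16900 and 20653 CPM in order of age. The part of this make-up in the totals was not tested. In the adult Mgp, Gkn3, Cxcl12 and Tm4sf1 were at 2662, 2552, 2551 and 2495 and were the 4 highest of the list. Other members had lower adult levels than at an earlier age, with Dll4 at 61.1 in the adult and 164 at E16.5, Cxcr4 at 3.69 and 80.6 at E12.5, and Fbln5 at 176 and 693 at E16.5. Each age is 1 library, and region and dissociation also change between E16.5 and P8, so that these cannot be told apart from age there.

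Whether the arterial difference itself was larger or smaller after birth was tested as the term of class by stage, 3 embryonic against 2 postnatal libraries. By edgeR 2 of 11893 genes passed (0.0168%), while 502 had an unadjusted p below 0.05 and a term of at least 1 in size, and DESeq2 called 60. Edn3, which encodes endothelin-3, was at 0.239, 0.447, 4.17, 79.7 and 332 CPM in arterial cells and at 1.35, 3.41, 23.4, 21.7 and 77.0 in no-marker cells. It was lower in arterial cells in the 3 embryonic libraries and higher in the 2 postnatal ones, a term of 4.61 ± 0.21 on the log2 scale (SE, adjusted p = 0.00361). Over all 5 libraries its arterial difference was 0.04 ± 0.98, and without the adult the term was 4.43 with an adjusted p of 0.0797.

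Laptm5, a lysosomal membrane protein of blood cells, was at 30.2, 77.5, 76.8, 37.7 and 40.8 CPM in arterial cells and at 15.1, 34.5, 28.6, 2.75 and 2.63 in no-marker cells. It was higher in arterial cells at all ages, and the ratio was higher after birth, where the no-marker level was lower (term 2.68 ± 0.21, adjusted p = 0.0492). Summed myeloid markers were at 7.04 CPM in arterial cells against 7.80 at P8 and at 15.8 against 17.5 in the adult, and the part of blood cell RNA in the Laptm5 values was not tested. The call ended without E9.5, E12.5, P8 or the adult (adjusted p = 0.134, 0.347, 0.0580 and 0.592), where the term was 2.59, 2.65, 2.79 and 2.54, and with matched comparison cells (adjusted p = 0.241), where it was 3.002. In simulated data of the same design, with each change equal in the postnatal libraries, 53.5% of 3-fold changes in this term were recovered. A gene without a call is thus not shown to have the same difference before and after birth. The simulation gave 113 calls, of which 6.19% were false.

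Open chromatin at the same genes was read from ATAC-seq of brain endothelial nuclei in the 8 libraries described above. These are nuclei of the whole brain endothelium, so that fewer arterial nuclei and less open chromatin per nucleus cannot be told apart. A gene counted as open with a peak within 500 bp of its start. The peak scores named here are the authors'. At Gja4 and Sema3g a peak lay in 8 of 8 libraries, whereas at Bmx it lay in 3 of 3 at E12, 1 of 3 at P6 and 0 of 2 adult, and at Gja5 in 3 of 3, 2 of 3 and 0 of 2. The Bmx peaks at E12 had a fold over local background of 5.01 to 5.22, and the single P6 peak had 2.63. Within 2000 bp a Bmx peak lay in 3 of 3 libraries at E12, 2 of 3 at P6 and 2 of 2 adult, so that its absence in the adult held for the 500 bp window only, while Gja5 had none in the adult at either distance. The peak lists differed in length, with 101322 to 111142 peaks at E12, 27160 to 87133 at P6 and 38465 and 45094 in the adult. They also differed in depth, from 31831670 to 42346647 tags at E12, from 19083443 to 20153603 at P6 and from 17944260 to 23918730 in the adult. P6 libraries 2 and 3 thus had longer lists than the adult ones at a like depth. The part of depth and list length in the counts of peaks was not tested.

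At the other arterial genes a peak lay in 21, 22 and 21 of 23 at E12 (92.8% ± 2.51, SD, n = 3), in 13, 20 and 21 at P6 (78.3% ± 19.0, n = 3) and in 18 and 20 in the adult (82.6% ± 6.15, n = 2). Over 17492 protein-coding genes the share was 66.0%, 59.1% and 56.7%. With only peaks of a −log10 q of at least 5, the arterial genes were at 88.4, 56.5 and 54.3% and all genes at 61.6, 50.0 and 49.5%. The first P6 library, with 13, was the lowest of the 8 and had 27160 peaks, against 87133 and 79903 in the other P6 libraries. Nuclei of whole brain, the input, had a peak at 22 of the 23 genes at E12, at 17, 20 and 18 at P6 and at 17 in the adult, so that a peak at these starts was not limited to the sorted endothelial nuclei. Over all protein-coding genes the input share was 66.7% at E12, 62.6% at P6 (mean) and 62.4% in the adult. Bmx had no peak in any of the 5 input libraries, and Gja4 had one in all 5.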

How the data were processed

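The single-cell values are UMI counts per gene and barcode as deposited by the authors, made with Cell Ranger and Seurat 4.0.4 on mm10 per the submitters' processing notes. The open-chromatin lists are broad peaks called by the authors per library with MACS2, with a fold over local background and a −log10 q per peak as deposited. The labels give 1 library chemistry, but E12.5 and E16.5 use another barcode list than E9.5, P8 and the adult. Barcodes were classed by the stated rule, with no doublet caller run, and the 14 rule genes left out of tests. Counts were summed per library and class and tested with edgeR 4.0.16 in R 4.3.3 (TMM factors, quasi-likelihood test, library as block, Benjamini-Hochberg adjustment over all genes), with DESeq2 1.42.0 as an alternative. The block pairs the 2 classes of 1 library. P-values of the first test are set by how far the difference between the classes varied among the 5 libraries. Each library is of another age, so that a difference that changes with age adds to this spread. In simulated data of the first design, with each changed gene moved 3-fold alike in all 5 libraries, 94.9% of changes were recovered. Of 191 calls there 2.09% were false. Differences that change with age were not simulated, so that these rates do not cover them. Named genes were the 12 largest and 12 smallest log2 differences that passed, went 1 way in all 5 libraries and had at least 20 CPM in the higher class (predicted and ribosomal genes left out), up to 4 or all passing members of each list, and the stage calls; other list members are given as examples chosen after their values were seen. Members, lists and rules were chosen with earlier results of these data known. Peaks were matched to RefSeq starts on GRCm38.p6, where 51.3 to 66.7% of gene starts had a peak.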

Additional observations from a re-analysis of the deposited data

Results flagged for a closer look

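The arterial difference of 2 genes was not the same before and after birth by the test of class and stage. For Edn3 it was higher after birth by 4.61 ± 0.21 on the log2 scale (SE, edgeR adjusted p = 0.00361), with arterial cells lower in 3 of 3 embryonic and higher in 2 of 2 postnatal libraries, and the call ended without the adult (adjusted p = 0.0797, at a term of 4.43). For Laptm5 it was higher after birth by 2.68 ± 0.21 (edgeR adjusted p = 0.0492), with arterial cells higher in 5 of 5 libraries. That call ended without E9.5, E12.5, P8 or the adult (edgeR adjusted p = 0.134, 0.347, 0.0580 and 0.592), with matched cells (0.241) and with at least 3 markers (0.0865), while the term was between 2.54 and 3.002 in these fits. Stage goes with brain region and dissociation in these libraries and cannot be told apart from them.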

How the results depend on the processing

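Of the 424 genes between arterial and no-marker cells, the count was 716 with at least 3 markers, 255 after thinning, 251 with at most 5% mitochondrial UMIs and 660 by DESeq2. Leaving out 1 library gave 83 to 569, with 170 without E12.5, 83 without E16.5 and 111 without P8. With no replicate block, so without the pairing of classes within a library, 3 genes passed. For the stage term the count of 2 became 1 with matched cells, 1 with cells matched within 10%, 1 with at least 3 markers, 18 with no filter, 60 by DESeq2 and 0 to 20 without 1 library. The 10% limit, and 3 markers for the stage term, were chosen after seeing the data.

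In order of age the arterial share was 7.06, 11.3, 13.0, 8.43 and 14.6% with at least 3 markers and 7.15, 10.0, 13.4, 8.26 and 13.3% after thinning. With at most 5% mitochondrial UMIs it was 15.5% at E9.5, 32.9% at P8 and 33.8% in the adult, and with 4 endothelial genes 22.3% at E9.5. The summed arterial level was 1816, 3309, 6548, 8108 and 17652 CPM with TMM factors, 1707, 3689, 7417, 9059 and 17004 after thinning, and 2009.7, 5319.9, 11408, 13013 and 19695 with at least 3 markers. Within 2000 bp the share of arterial genes with a peak was 93.5% in the adult, 92.8% at E12 and 88.4% at P6, where all genes were at 59.4, 70.0 and 62.4%. At a −log10 q of at least 5 the share of arterial genes was 54.3% in the adult, 88.4% at E12 and 56.5% at P6, where all genes were at 49.5, 61.6 and 50.0%.

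Some log2 differences of genes that did not pass changed sign. Alas2 was at -0.024 matched, -0.020 matched within 10%, -0.050 without the deepest cells, -0.093 thinned and -0.071 at 5% mitochondrial UMIs. Col1a1 was at 0.29 against cells with 0 or 1 marker. Without the deepest cells Col1a2 was at -0.20, Dcn at -0.85 and Slc4a1 at -0.034, and Slc4a1 was at -0.0044 against cells with 0 or 1 marker. Edn3 was at -0.033 with no filter and -0.97 by DESeq2. With no block Hba-x was at 0.088, Hbb-y at 0.074 and Slco1a4 at -0.35. Leaving out 1 library gave -0.77 to 0.28 for Col1a1, -0.29 to 0.59 for Col1a2, -0.56 to 0.66 for Dcn, -0.92 to 0.71 for Edn3 and -0.89 to 0.18 for Hba-x. The cause was not tested.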
